A study of Homo sapiens with 21 samples.

Results

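The genes described here were 10 small nuclear RNA genes of 28395 genes in a count table from Hs578T cells, an established triple-negative breast cancer line. They were the U1 variant RNVU1-6, the U4 genes RNU4-1 and RNU4-2, the U5 genes RNU5A-1 and RNU5B-1, the minor spliceosome genes RNU11, RNU12, RNU4ATAC and RNU6ATAC, and RN7SK. They were chosen by name, after RNVU1-6 had been seen among the strongest rises in these same libraries. RNA was taken 8 h after 7 treatments, each with 3 libraries: DMSO vehicle, THZ531 at 0.1 µM, lapatinib at 3.16 µM, nilotinib at 1 µM, each of these inhibitors together with THZ531 at 0.1 µM, and THZ531 at 1 µM. THZ531 inhibits the transcriptional kinases CDK12 and CDK13, lapatinib inhibits EGFR and HER2, and nilotinib inhibits BCR-ABL. Per the paper, the samples came from 3 separate experiments, so the spread within a group is that between experiments.

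Small nuclear RNAs (snRNAs) are the RNA cores of the spliceosome. U1, U2, U4, U5 and U6 remove most introns, while U11, U12, U4atac and U6atac work with U5 on the rare minor introns. Most of their genes are read by RNA polymerase II and their transcripts are cut at the 3′ end by the Integrator complex, whereas U6, U6atac and 7SK come from RNA polymerase III. 7SK RNA holds the kinase P-TEFb (CDK9 with a cyclin T) in an inactive particle with HEXIM, LARP7 and MEPCE. Mature snRNAs and 7SK carry no polyA tail, and these libraries were polyA-selected and unstranded. The counts below therefore reflect only the molecules that entered such a library, and a longer or tailed transcript cannot be told apart from a mature RNA.

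The libraries held 97612207 to 112229052 counts each. The mesenchymal marker VIM stood at 6390 to 10100 CPM (counts scaled to library size), whereas ESR1 did not exceed 0.502 CPM, PGR 0.035 CPM, EPCAM 0.0875 CPM and CDH1 0.368 CPM. ERBB2 (HER2) was read at 24 to 42 CPM and KRT18 at 83.5 to 161 CPM. Of other cell types, the endothelial marker PECAM1 lay at 0.241 to 0.605 CPM and the leukocyte marker PTPRC at 0.774 to 2.45 CPM. PTPRC moved with the snRNA genes, from a mean of 1.05 CPM in DMSO to 1.76 with lapatinib plus THZ531, 1.86 with nilotinib plus THZ531 and 2.33 with 1 µM THZ531 (adjusted p = 0.00206, 0.000873 and 2.75e-05, edgeR). The share of counts on the 13 mitochondrial mRNAs moved as well, from 1.25% in DMSO to 1.60%, 1.56% and 1.53%. With libraries scaled to these mRNAs, PTPRC differed by 0.06 (log2, adjusted p = 0.843, edgeR) with lapatinib plus THZ531 and by 0.2 (0.492) with nilotinib plus THZ531. With library size alone as the scale, PTPRC differed by 0.41 (0.068) with lapatinib plus THZ531. The part of PTPRC or of the mitochondrial share in the results was not tested.

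Because snRNA genes have near copies, the sequences show how far a read could be assigned. RNVU1-6 lies on the minus strand at chr1:146052081-146052244 (GRCh38) and is shown with RNU1-1, a canonical U1 gene on the minus strand at chr1:16514122-16514285. Capitals mark the bases that differ.
RNVU1-6: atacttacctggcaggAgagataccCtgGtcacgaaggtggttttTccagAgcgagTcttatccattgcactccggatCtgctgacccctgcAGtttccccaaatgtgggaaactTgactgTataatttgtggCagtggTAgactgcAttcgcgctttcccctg
RNU1-1: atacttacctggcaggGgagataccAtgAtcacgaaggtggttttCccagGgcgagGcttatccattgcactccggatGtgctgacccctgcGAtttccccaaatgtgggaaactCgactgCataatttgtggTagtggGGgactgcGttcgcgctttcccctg
The pair shared 149 of 164 bases (90.9%) and differed at 15, the first being G17A, counted from the 5′ end. The 5′ end, which pairs with the 5′ splice site, had the same letters in both. No other locus on the primary chromosomes matched RNVU1-6 at 95% identity or more over 95% of its length, and the longest exact run found elsewhere was 27 bases. RNU1-1 itself had 7 identical copies. Reads were 100 bases long, so reads within RNVU1-6 could be placed, while those of canonical U1 could not be assigned to 1 copy. The 4 canonical U1 genes RNU1-1 to RNU1-4 together held only 1, 1 and 2 counts in the DMSO libraries (this sum was chosen after its values were seen). They held 27, 16 and 23 counts with lapatinib plus THZ531, 14, 14 and 5 with nilotinib plus THZ531, and 40, 65 and 52 with 1 µM THZ531. Their summed level was thus also above DMSO in every library of these groups, far below the level of RNVU1-6.

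The U4 genes are shown because only one of them was counted. RNU4-2 lies at chr12:120291759-120291903 and RNU4-1 at chr12:120293093-120293237, both on the minus strand.
RNU4-2: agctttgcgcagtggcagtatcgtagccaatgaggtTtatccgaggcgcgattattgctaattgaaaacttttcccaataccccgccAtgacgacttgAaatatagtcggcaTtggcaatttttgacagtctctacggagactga
RNU4-1: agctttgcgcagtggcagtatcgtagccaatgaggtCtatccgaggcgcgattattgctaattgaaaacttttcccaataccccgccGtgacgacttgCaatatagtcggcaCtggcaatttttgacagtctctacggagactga
They differed at 4 of 145 bases (T37C, A88G, A99C and T113C, RNU4-2 first), with 97.2% identity. RNU4-1 was listed at 0 in all 21 libraries, and no fold was computed for it. A 0 in 1 library alone allows an expected count of up to 3, and 0 in all 21 allows less per library.

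The U4 genes cannot be separated for a read that covers no differing base. The longest exact run found elsewhere was 50 bases for RNU4-2 and 60 for RNU4-1. A 100-base read lying wholly within either gene therefore covered at least 1 differing base. RNU6ATAC had 5 other loci at 95% identity or more over 95% of its length, while RNU11, RNU12, RNU4ATAC and RN7SK had none. However, RN7SK had 4 other loci with an exact run of 100 bases or more, and the longest run was 145 bases. Some 100-base reads within RN7SK could therefore match elsewhere, and their part in its counts was not tested.

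RNVU1-6 was chosen by its difference from DMSO, so its values there are a description without a test. In DMSO it had 5, 4 and 11 counts. With lapatinib plus THZ531 it had 728, 512 and 649 counts, with nilotinib plus THZ531 555, 467 and 367, and with 1 µM THZ531 321, 320 and 332. The lowest of these 9 libraries lay far above the highest DMSO library. The log2 fold changes against DMSO were 6.92 ± 0.29 (SE, n = 3), 6.46 ± 0.29 and 5.90 ± 0.29, respectively, from 1 fit in which all comparisons with DMSO share the same 3 DMSO libraries. Lapatinib alone gave 7, 8 and 6 counts and nilotinib alone gave 4, 9 and 2, both overlapping DMSO.

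Low-dose THZ531 gave 17, 21 and 12 RNVU1-6 counts, just above the highest DMSO library. The log2 fold change was 1.37 ± 0.39 (SE, n = 3), with an adjusted p of 0.0441 by edgeR (quasi-likelihood F test, Benjamini-Hochberg correction across 16036 genes). RNVU1-6 was the 1 called gene of 9 tested in the low-dose comparison, where 1.78% of all genes were called higher, and the DMSO libraries were those that had put it in the list. The call was lost in 16 of 29 other fits, among them those without either DMSO replicate 1 (adjusted p = 0.165) or DMSO replicate 2 (0.181), without low-dose replicate 1 (0.118) or replicate 2 (0.184), and with upper-quartile scaling (0.0517).

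**Figure D1:**
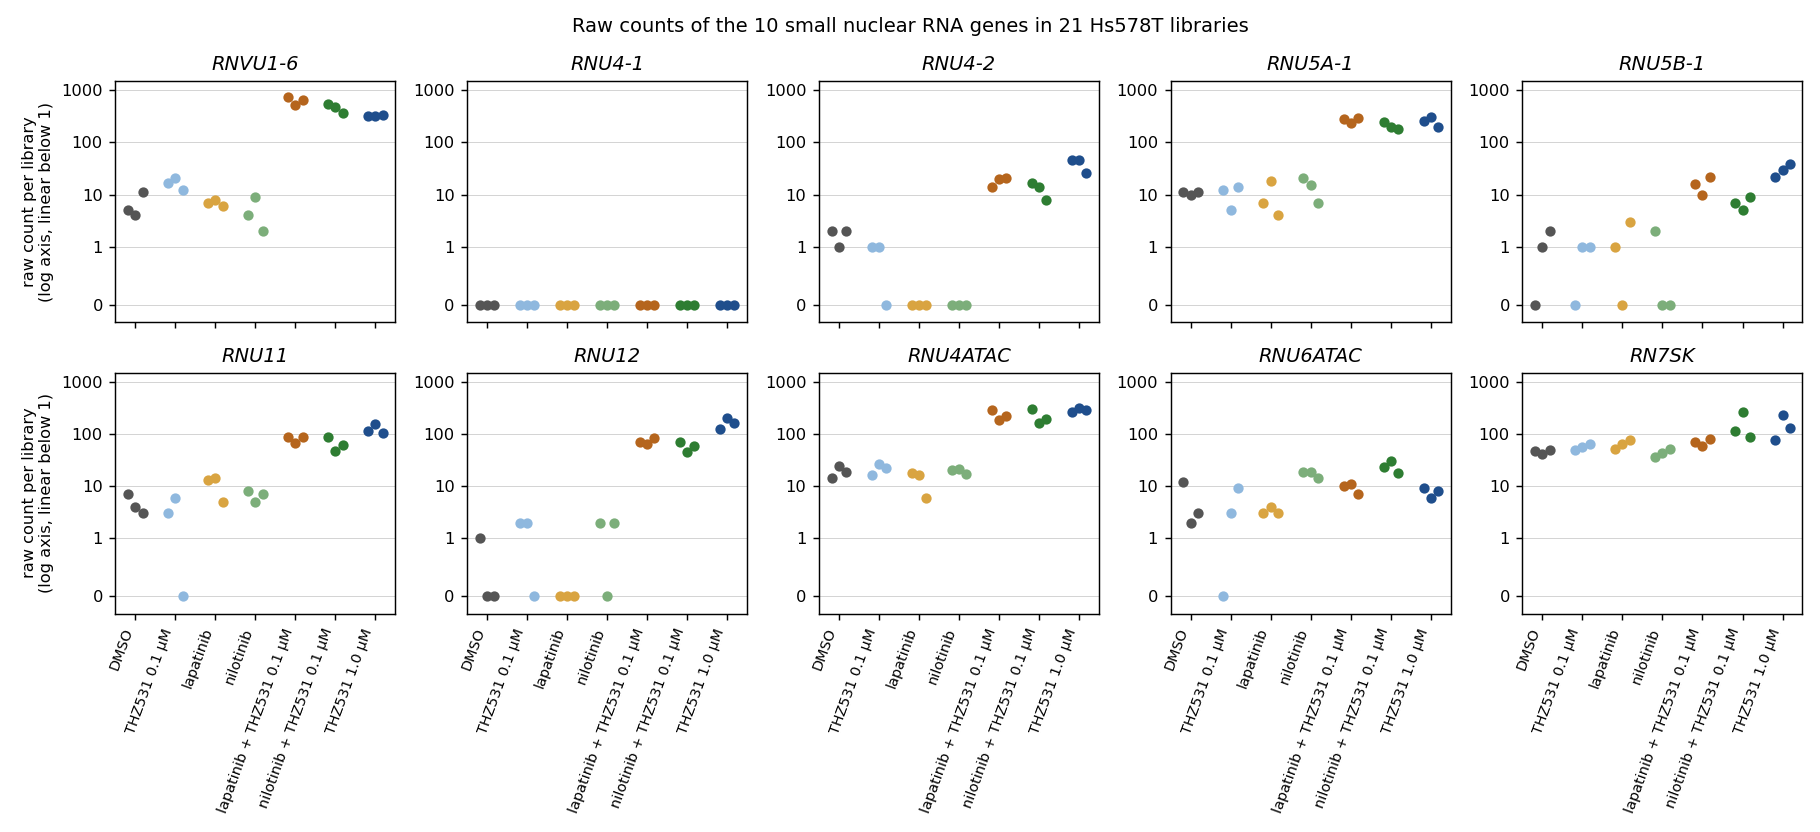
Raw counts of each of the 10 genes by treatment (x axis), 1 point per library and 3 per group, on a log axis that is linear below 1 count. RNVU1-6 ran from 2 to 21 counts in the 4 weaker treatments and from 320 to 728 in the 3 others; RNU4-1 stood at 0 throughout, and RN7SK and RNU6ATAC overlapped more between groups.

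RNU5A-1, a U5 gene whose RNA aligns exons in both spliceosomes, had 11, 10 and 11 counts in DMSO. It had 286, 236 and 291 counts with lapatinib plus THZ531, 251, 199 and 180 with nilotinib plus THZ531, and 255, 308 and 201 with 1 µM THZ531. No library of these treatments came near DMSO, and the 3 treatments overlapped each other. The gene rose by 5.04 ± 0.35, 4.65 ± 0.35 and 4.89 ± 0.35 (log2 fold change ± SE, n = 3), with adjusted p-values of 1.16e-10, 4.26e-10 and 2.72e-10 in edgeR's quasi-likelihood test. With the single treatments it had 4 to 21 counts, which spanned the DMSO values.

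RNU4ATAC encodes U4atac, the partner of U6atac in the minor tri-snRNP. It had 14, 24 and 19 counts in DMSO against 284, 184 and 220 with lapatinib plus THZ531. Nilotinib plus THZ531 gave 306, 161 and 192 counts, and 1 µM THZ531 gave 263, 317 and 293. The lowest of these stood well above DMSO. The rises were 3.97 ± 0.30, 3.89 ± 0.30 and 4.25 ± 0.30 (log2, SE, n = 3), with adjusted p-values of 3.15e-10, 4.64e-10 and 1.66e-10 in edgeR's test.

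RNU11 encodes U11, which recognises the 5′ splice site of minor introns. It had 7, 4 and 3 counts in DMSO, and 87, 68 and 89 with lapatinib plus THZ531. It reached 88, 48 and 61 counts with nilotinib plus THZ531 and 114, 158 and 104 with 1 µM THZ531. All 9 libraries lay above DMSO, and the 3 at 1 µM THZ531 lay above the other 6. The log2 fold changes were 4.48 ± 0.44, 4.15 ± 0.44 and 5.04 ± 0.43 (SE, n = 3). Outside these treatments 2 libraries reached the filter's 10 counts at the median library size, and 3 were needed, so RNU11 entered the test only by being high here and the values are given without a test. With lapatinib alone it had 13, 14 and 5 counts, and the difference from DMSO had an adjusted p of 0.613 in the same test.

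RNU12, RNU4-2 and RNU5B-1 also entered the test only through the 3 strong treatments (the combinations and 1 µM THZ531), since none of the other 12 libraries reached the filter. Their counts are lower still, so they are given as ratios of summed counts with 95% exact counting intervals, which cover counting error only. RNU12, the source of U12, which binds the branch site of minor introns, had 1, 0 and 0 counts in DMSO. It had 71, 64 and 82 counts with lapatinib plus THZ531, 69, 44 and 59 with nilotinib plus THZ531, and 124, 202 and 161 with 1 µM THZ531. The ratios to DMSO rested on the single DMSO count and were 284 (50.5 to 11300), 223 (39.4 to 8850) and 612 (109 to 24200). Counts at the RNU12 locus thus went from the edge of detection to 44 or more in every library of these treatments.

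RNU4-2, a source of U4 that holds U6 inactive before splicing, had 2, 1 and 2 counts in DMSO. It had 14, 20 and 21 counts with lapatinib plus THZ531, 17, 14 and 8 with nilotinib plus THZ531, and 46, 47 and 26 with 1 µM THZ531. The ratios were 14.4 (5.82 to 46.1), 10.1 (3.98 to 32.8) and 29.9 (12.5 to 93.9). It had 0 counts in each library of lapatinib or nilotinib alone, so no ratio was computed there. A 0 in 1 library alone allows an expected count of up to 3, and 0 in a whole group allows less per library.

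RNU5B-1, the second U5 gene, had 0, 1 and 2 counts in DMSO and 16, 10 and 22 with lapatinib plus THZ531. It had 7, 5 and 9 counts with nilotinib plus THZ531 and 22, 30 and 38 with 1 µM THZ531. The ratios were 21 (6.76 to 105), 9.06 (2.71 to 47.5) and 37.7 (12.5 to 186). In each strong treatment its counts were well below those of RNU5A-1, which has the same length; the pair are paralogs, and how shared reads were split between them is uncertain.

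The genes of RNA polymerase III had smaller log2 fold changes than these. RNU6ATAC encodes U6atac, the catalytic RNA of the minor spliceosome. It had 12, 2 and 3 counts in DMSO, 10, 11 and 7 with lapatinib plus THZ531, 23, 30 and 18 with nilotinib plus THZ531, and 9, 6 and 8 with 1 µM THZ531. Only the nilotinib combination lay above every DMSO library, and it rose by 2.41 ± 0.56 (log2, SE, n = 3; adjusted p = 0.000722, edgeR). RNU6ATAC reached the filter in 8 libraries, among them all those of nilotinib alone and of nilotinib plus THZ531. Without these groups it would not have entered the test, so its calls with nilotinib are no separate support. The lapatinib combination differed by 1.10 ± 0.62 (adjusted p = 0.118) and 1 µM THZ531 by 0.76 ± 0.64 (adjusted p = 0.296). Both passed the threshold without DMSO replicate 1, the highest of the DMSO libraries, at 2.20 (adjusted p = 0.0123) and 1.86 (adjusted p = 0.0356).

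With nilotinib alone RNU6ATAC had 19, 19 and 14 counts. The difference of 1.64 ± 0.58 (log2, SE, n = 3) did not pass the threshold in edgeR's test (adjusted p = 0.284). All 3 nilotinib libraries lay above the DMSO libraries, while lapatinib alone gave 3, 4 and 3 counts.

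RN7SK (7SK RNA) had 47, 42 and 49 counts in DMSO and 70, 59 and 80 with lapatinib plus THZ531. It had 113, 261 and 88 counts with nilotinib plus THZ531, and 77, 229 and 127 with 1 µM THZ531. Every library of these groups lay above DMSO, and replicate 2 of each of the last 2 groups stood apart from its fellows. RN7SK rose by 2.11 ± 0.37 (adjusted p = 3.8e-05) with nilotinib plus THZ531 and by 1.98 ± 0.37 (adjusted p = 8.34e-05) with 1 µM THZ531 in edgeR's test. Without the high replicate the rises were 1.5 (adjusted p = 0.000436) and 1.48 (adjusted p = 0.00104). Some reads within RN7SK could match other loci, so its counts may not come from that gene alone.

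The rise of RN7SK with lapatinib plus THZ531 was smaller, at 0.99 ± 0.38 (log2, SE, n = 3; adjusted p = 0.0248, edgeR). It was lost without DMSO replicate 1 (adjusted p = 0.0583), without DMSO replicate 2 (0.0638), without lapatinib plus THZ531 replicate 3 (0.0797) and with library size alone as the scale (0.129). It was also lost when libraries were scaled to the 13 mitochondrial mRNAs, with a log2 fold change of 0.29 (adjusted p = 0.492), a scale on which the median of all genes moved to -0.69. The single treatments gave 36 to 77 RN7SK counts, and none of their differences from DMSO passed the test.

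Counted together, 8 of the 9 tested genes were called higher with lapatinib plus THZ531, 9 with nilotinib plus THZ531 and 8 with 1 µM THZ531, against 34.3%, 33.7% and 33.1% of all genes tested. These counts include RNVU1-6, whose rise put it in the list, and the 4 genes that passed the filter only by being high in these treatments, so they are no separate support. Of the other 4 genes, RNU5A-1, RNU4ATAC and RN7SK were called higher in all of these treatments and RNU6ATAC only with nilotinib plus THZ531. RNU6ATAC passed the filter by way of the nilotinib groups, so its call is no separate support either. The calls of RN7SK carry the limit that some of its reads could match other loci. None of these 4 genes was called lower, against 37.8%, 37.3% and 36.8% of all genes. With lapatinib alone and nilotinib alone 0 of 9 were called in edgeR's test, against 0.256% and 0.243% of all genes called higher. DESeq2 also called 0 of 9. At an unadjusted p under 0.05 in edgeR's test, RNU11 was higher with lapatinib and RNU6ATAC was higher with nilotinib. RNU4-2 was lower with each, where it had 0 counts. RNU11 and RNU4-2 had passed the filter only through the strong treatments, and RNU6ATAC by way of the nilotinib groups.

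Against the same inhibitor alone, 8 of 9 were called higher with lapatinib plus THZ531 and 8 of 9 with nilotinib plus THZ531 (34.9% and 33.6% of all genes), but the same 5 genes were chosen or kept for being high in the strong treatments. Of the other 4, 3 were called in each comparison. The exception with lapatinib was RN7SK, at 0.40 ± 0.37 (log2, SE, n = 3; adjusted p = 0.339, edgeR), and the exception with nilotinib was RNU6ATAC, at 0.78 ± 0.49 (adjusted p = 0.162). The part of the combined response beyond the sum of both single responses, on the log2 scale, was above 0 for 2 of these 4 genes with lapatinib (RNU5A-1 and RNU4ATAC; 28.2% of all genes) and for 3 of 4 with nilotinib (RN7SK as well; 25.6%), in a contrast added after the data were seen. These contrasts reuse the libraries of the combinations.

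The combinations were next set against the high dose of THZ531. RNVU1-6 was chosen for its rise in such libraries, so its values are a description without a test. It stood higher by 1.02 ± 0.19 (log2, SE, n = 3) with lapatinib plus THZ531 than with 1 µM THZ531 and by 0.55 ± 0.19 with nilotinib plus THZ531, and every combination library had more counts than any high-dose library. No other gene was called higher with lapatinib plus THZ531, so that 1 of 9 was near the share of 12.8% over all genes. With nilotinib plus THZ531 2 of 9 were called higher (11.2% of all genes), the second being RNU6ATAC at 1.65 ± 0.54 (adjusted p = 0.0294, edgeR). Its call was lost in 5 of 28 other fits, those without any 1 of the high-dose libraries or without nilotinib plus THZ531 replicate 1 or 2, with an adjusted p of 0.0515 to 0.119. RNU6ATAC had also passed the filter by way of the nilotinib groups, so this call is no separate support.

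Other genes stood in the opposite order. With lapatinib plus THZ531, 3 of 9 were lower than with 1 µM THZ531 (16.1% of all genes) and with nilotinib plus THZ531 4 of 9 were lower (13.0%). RNU12 differed by -1.10 ± 0.29 (adjusted p = 0.00711) and -1.46 ± 0.29 (adjusted p = 0.00117), and RNU4-2 by -1.05 ± 0.36 (adjusted p = 0.041) and -1.56 ± 0.38 (adjusted p = 0.00606), in edgeR's test. For RNU12 in both comparisons, and for RNU4-2 with nilotinib plus THZ531, the calls held in all other fits that included the gene. RNU12 passed the filter in all 9 libraries of the strong treatments and RNU4-2 in 8. RNU5B-1 passed it in 6, all of lapatinib plus THZ531 and 1 µM THZ531, so its difference of -2.04 ± 0.52 between nilotinib plus THZ531 and the high dose is a description without a test.

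The remaining calls were near the threshold. RNU4-2 with lapatinib plus THZ531 lost its call in 13 other fits, with an adjusted p of up to 0.153 without high-dose replicate 2. RNU11 with nilotinib plus THZ531 (-0.89 ± 0.32, adjusted p = 0.0466) lost it in 16, with an adjusted p of up to 0.213, again without high-dose replicate 2. RN7SK with lapatinib plus THZ531 differed by -0.99 ± 0.35 (adjusted p = 0.0414), and by -0.50 without the high library of the high-dose group (adjusted p = 0.347).

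RNU5A-1 and RNU4ATAC were not called in either comparison. The 95% intervals of the difference were -0.39 to 0.70 and -0.78 to 0.31 for RNU5A-1, and -0.78 to 0.21 and -0.86 to 0.13 for RNU4ATAC (log2, lapatinib then nilotinib combination). Between the combinations 0 of 9 genes were called in edgeR's test, against 1.47% of all genes, and DESeq2 called 0 as well. At an unadjusted p under 0.05, RNVU1-6 and RNU5B-1 were higher with lapatinib plus THZ531, and RN7SK and RNU6ATAC higher with nilotinib plus THZ531. However, RNVU1-6 was chosen for its rise in such libraries. RNU5B-1 passed the filter only with lapatinib plus THZ531 and 1 µM THZ531, and RNU6ATAC by way of the nilotinib groups. The differences of RNVU1-6, RNU5B-1 and RNU6ATAC here are thus a description without a test.

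**Figure D2:**
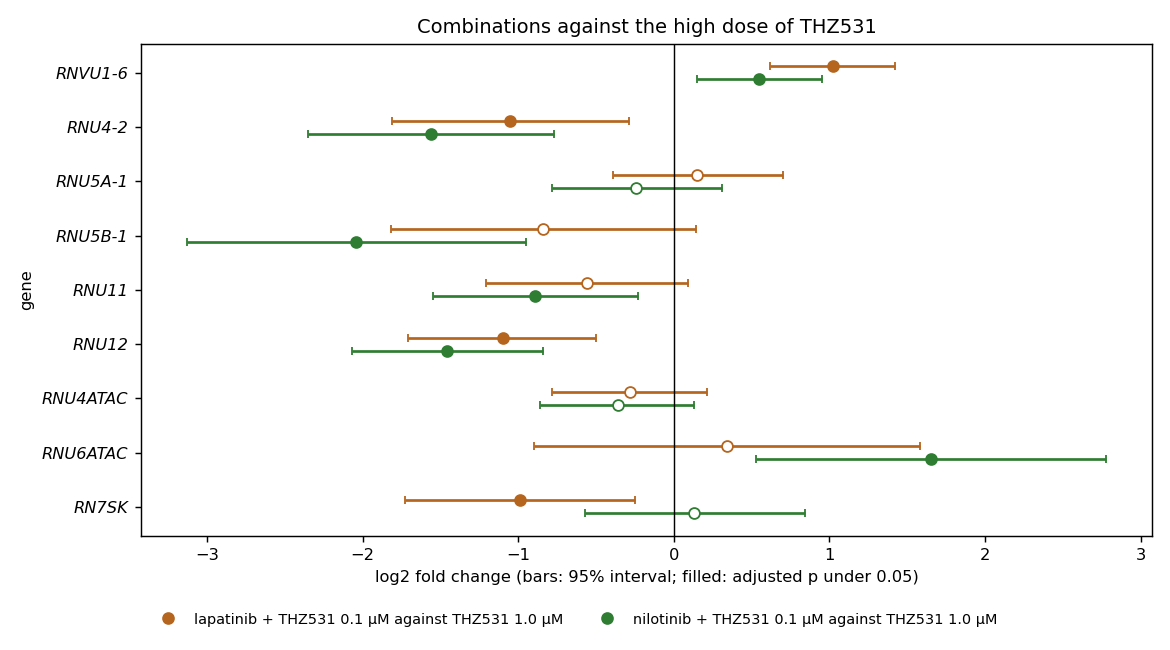
Log2 fold change (x axis) of each of the 9 tested genes (y axis) in the lapatinib or nilotinib combination against 1 µM THZ531, with 95% intervals. Filled points had an adjusted p under 0.05, which is no separate support for RNVU1-6, RNU5B-1 and RNU6ATAC because of how they entered. RNVU1-6 lay above 0 in both comparisons (1.02 and 0.55), while RNU12 and RNU4-2 lay below 0 in both.

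Other snRNA rows of the table were read for comparison. Beside the 10 genes it held 72 rows with symbols of the RNU or RNVU kind, 30 of them at 0 throughout, and 13 had a mean of at least 10 counts. Of these 12 were tested, 6 of them U6 loci and 6 not. All 6 that were not U6 (RNU2-2, RNU5D-1, RNU5E-1, RNVU1-14, RNVU1-15 and RNVU1-19) were called higher in each strong treatment (34.3%, 33.7% and 33.1% of all genes), with median log2 fold changes of 4.32, 3.86 and 4.50. However, 4 of the 6 (RNU5D-1, RNVU1-14, RNVU1-15 and RNVU1-19) passed the filter only by being high there. RNU2-2 and RNU5E-1 passed it without these treatments but averaged under 10 counts outside them. All 6 were thus picked by being high in the strong treatments, so the count is no support and the values are a description. The U2 gene RNU2-2 had 11, 8 and 1 counts in DMSO and 195, 146 and 172 with lapatinib plus THZ531, with a log2 fold change of 5.04 ± 0.32. The U1 variant RNVU1-19 had 2, 3 and 6 counts in DMSO and 77, 113 and 98 with lapatinib plus THZ531, with a log2 fold change of 5.05 ± 0.39.

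The 6 tested U6 loci, of RNA polymerase III, had median log2 fold changes of 0.68, 0.86 and 0.84, and 3, 4 and 4 of them were called higher (34.3%, 33.7% and 33.1% of all genes). Scaled to the mitochondrial mRNAs, their median with lapatinib plus THZ531 was -0.03, against -0.69 over all genes, and none kept its call. RNU6-8 had 131, 109 and 131 counts in DMSO and 235, 179 and 237 with lapatinib plus THZ531, a rise of 1.20 ± 0.18 (adjusted p = 7.68e-06, edgeR). RNU6-1 rose by 0.59 ± 0.23 (adjusted p = 0.0285) in the same comparison, but stood at -0.10 with mitochondrial scaling, and its call was lost without any 1 of the DMSO libraries or without lapatinib plus THZ531 replicate 1 or 3 (adjusted p = 0.056 to 0.0877). U6 copies are alike, and some varied widely between libraries of 1 group. RNU6-36P had 338, 126 and 22 counts in DMSO, and RNU6-7, which was not tested, had 0, 1 or 3 counts in most libraries but 93 in 1 and 153 in another.

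**Figure D3:**
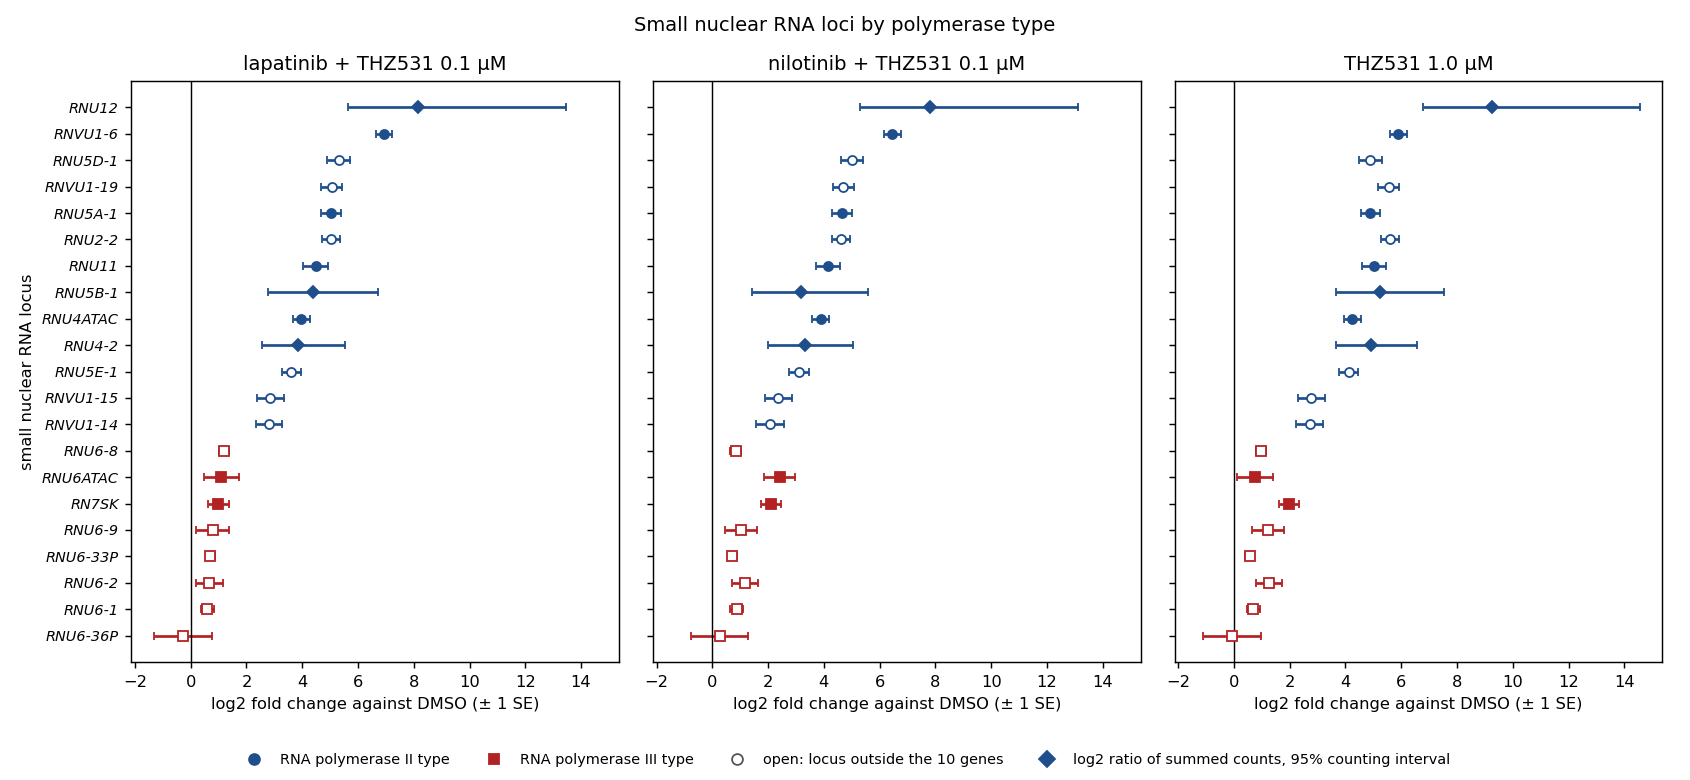
Log2 fold changes against DMSO (x axis, 3 panels by treatment) of 9 of the 10 genes (filled) and 12 other snRNA loci (open). Circles and squares show the edgeR fit ± 1 SE, and diamonds show the log2 ratio of summed counts with its 95% counting interval for RNU12, RNU4-2 and RNU5B-1. Loci of the RNA polymerase III type (squares) ran from -0.28 to 2.41, and the fitted loci of the polymerase II type (circles) from 2.06 to 6.92. Most circles were chosen or kept for being high in these treatments, so the gap between the types is a description. The polymerase III gene RPPH1 is not shown.

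The polymerase type did not separate all small RNAs of the table. RPPH1, the RNA of ribonuclease P, is read by RNA polymerase III. It had 23, 15 and 25 counts in DMSO, 1155, 652 and 903 with lapatinib plus THZ531, 876, 683 and 635 with nilotinib plus THZ531, and 434, 501 and 554 with 1 µM THZ531. It rose by 5.81 ± 0.27 with lapatinib plus THZ531 (adjusted p = 2.24e-13, edgeR), a size near that of RNU5A-1 and with the order of RNVU1-6 across the 3 treatments. Of the 5 tested of 12 listed polymerase III small RNAs, 4, 5 and 4 were called higher (34.3%, 33.7% and 33.1% of all genes). With mitochondrial scaling 1, 2 and 2 of them were called higher. The vault RNA VTRNA1-3 rose by 1.62 ± 0.43 (adjusted p = 0.00226) with lapatinib plus THZ531, but its call was lost with mitochondrial scaling (0.97, adjusted p = 0.0643). RMRP had 8, 14 and 4 counts in DMSO and 15, 2 and 6 with that combination, an overlap. It was called higher only with nilotinib plus THZ531, where it had 10, 48 and 10 counts, so that call leaned on 1 library.

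Genes around the 10 loci were read because unstranded counts cannot separate overlapping transcripts. RNU4ATAC lies at chr2:121530880-121531009 inside an intron of CLASP1, a microtubule plus-end protein gene on the opposite strand. RNU4ATAC also lies in an intron of CLASP1-AS1, a long noncoding RNA on the same strand that was not among the genes counted. CLASP1 fell in the 3 strong treatments, with log2 fold changes of -2.18 ± 0.09, -2.14 ± 0.09 and -1.22 ± 0.08 (SE, n = 3) and adjusted p-values of 2.24e-14, 3.11e-14 and 1.06e-10 in edgeR's test, while RNU4ATAC rose. RNU5A-1 lies in an intron of PARP16 in the GENCODE annotation, and PARP16 fell, with log2 fold changes of -0.93 ± 0.10, -0.84 ± 0.10 and -0.83 ± 0.10 (adjusted p = 5.47e-08, 2.54e-07 and 3.15e-07). RefSeq places the U4 genes within the span of SIRT4, which rose by 1.47 ± 0.19 and 0.99 ± 0.19 with the combinations and differed by 0.38 ± 0.20 with 1 µM THZ531 (adjusted p = 1.01e-06, 0.000134 and 0.0952). The second call was lost with mitochondrial scaling (0.38, adjusted p = 0.168), and the third value passed with upper quartile (0.58, adjusted p = 0.015).

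Neighbours that do not overlap moved either way. TAF12, 331 bases from RNU11 (chr1:28648600-28648734), fell by 0.98 ± 0.09 with lapatinib plus THZ531 (adjusted p = 8.9e-09, edgeR). POLDIP3, 361 bases from RNU12 (chr22:42615244-42615393), rose by 0.28 ± 0.07 with lapatinib plus THZ531 (adjusted p = 0.00166) and fell by 0.19 ± 0.07 with 1 µM THZ531 (adjusted p = 0.0216), but its direction depended on the scaling: the first value was -0.05 with library size alone and -0.41 with mitochondrial scaling, and the second 0.01 with upper quartile. Without DMSO replicate 1 or high-dose replicate 2 the second call was lost (adjusted p = 0.0556 and 0.173). GSTA4, 336 bases from RN7SK (chr6:52995620-52995951), rose by 0.71 ± 0.11 (adjusted p = 1.49e-05) and CILK1, on its other side, fell by 1.83 ± 0.11 (adjusted p = 1.42e-11) with lapatinib plus THZ531. With mitochondrial scaling GSTA4 stood at 0.03 (adjusted p = 0.908).

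WDR5, the nearest gene measured beside RNU6ATAC (chr9:134164439-134164564), differed by 0.12 ± 0.06 with lapatinib plus THZ531 (adjusted p = 0.0627, edgeR), with a turn to -0.21 with library size alone and -0.56 with mitochondrial scaling. The long noncoding RNA LINC01719, 352 bases from RNVU1-6, fell by 2.50 ± 0.43 with lapatinib plus THZ531 (adjusted p = 3.27e-05), from a mean of 0.213 CPM in DMSO. RNU12 lies in an intron of an unnamed protein-coding gene on the opposite strand in GENCODE. RefSeq has the long noncoding RNAs TAF12-DT over RNU11 and LOC124902297 over RNU6ATAC, neither among the genes counted. GENCODE also has unnamed long noncoding RNAs with exons over RNVU1-6, RNU11 and RNU12 on the same strand. Reads of those transcripts and of the snRNAs cannot be told apart in these counts.

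**Figure D4:**
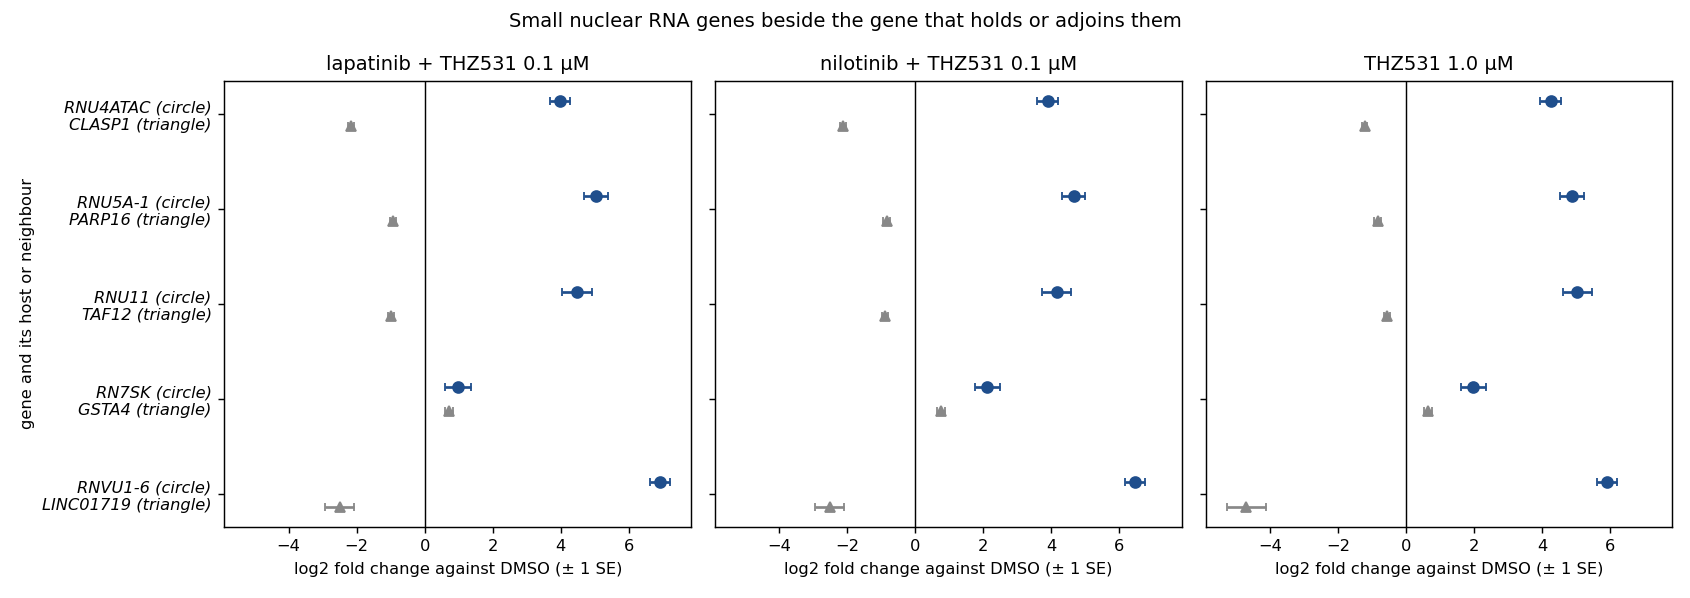
Log2 fold changes against DMSO (x axis, ± 1 SE, 3 panels by treatment) of 5 small nuclear RNA genes (circles) and of the gene that holds or adjoins each (triangles). CLASP1, PARP16, TAF12 and LINC01719 lay below 0 in every panel while the snRNA gene beside them lay above 0, and GSTA4 lay above 0 with RN7SK.

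The mRNAs of the pathway were read from lists drawn up for the snRNA life cycle. Their counts are to be read against all genes tested, of which 37.8%, 37.3% and 36.8% fell and 34.3%, 33.7% and 33.1% rose with lapatinib plus THZ531, nilotinib plus THZ531 and 1 µM THZ531. Of 15 Integrator subunits, which cut snRNA 3′ ends, 11 (73.3%) fell and 1 (6.67%) rose with lapatinib plus THZ531, 11 fell and 2 rose with nilotinib plus THZ531, and 11 fell and 2 rose with 1 µM THZ531. Their median log2 fold changes were -0.65, -0.60 and -0.93, against -0.01 over all genes. INTS2 fell by 2.23 ± 0.11 (adjusted p = 4.46e-13, edgeR) and INTS5 fell by 2.12 ± 0.11 (adjusted p = 6.45e-13) with lapatinib plus THZ531. Of 13 tested factors for snRNA gene transcription 7 (53.8%) fell and 4 (30.8%, near the share of all genes) rose with lapatinib plus THZ531, 7 fell and 4 rose with nilotinib plus THZ531, and 8 fell and 1 rose with 1 µM THZ531. SNAPC4, a subunit of the complex on snRNA promoters, fell by 2.21 ± 0.17 (adjusted p = 6e-10), and TBP, the TATA-binding protein, fell by 2.1 ± 0.13 (adjusted p = 2.39e-11), both with lapatinib plus THZ531.

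Of 22 genes of snRNA capping, export and particle assembly, 14 (63.6%, against 37.8% of all genes) fell and 2 (9.09%, against 34.3%) rose with lapatinib plus THZ531, 13 fell and 4 rose with nilotinib plus THZ531, and 15 fell and 3 rose with 1 µM THZ531. GEMIN7 fell by 2.52 ± 0.13 (adjusted p = 7.23e-13, edgeR) and GEMIN2 fell by 2.50 ± 0.10 (adjusted p = 2.78e-14) with lapatinib plus THZ531, and both belong to the SMN complex that loads Sm proteins on snRNAs. Of 12 minor spliceosome protein genes, 8 (66.7%) fell in each strong treatment and 3, 4 and 4 rose, the last from 25.0% to 33.3% and so no more than among all genes. ARMC7 fell by 1.98 ± 0.11 (adjusted p = 1.8e-12) and RBM48 fell by 1.84 ± 0.12 (adjusted p = 2.41e-11) with lapatinib plus THZ531.

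The proteins of the particles themselves moved in a mixed way. Of 13 tested Sm and LSm ring genes, 10, 10 and 9 rose (76.9%, 76.9% and 69.2%, against 34.3%, 33.7% and 33.1% of all genes) and 3 (23.1%) fell in each strong treatment, with medians of 0.61, 0.54 and 0.50. With mitochondrial scaling the median with lapatinib plus THZ531 was -0.07 against -0.69 over all genes, and no call of a rise was kept. LSM6 fell by 1.88 ± 0.13 (adjusted p = 1.09e-10, edgeR) and LSM8 fell by 1.81 ± 0.09 (adjusted p = 9.15e-13) with lapatinib plus THZ531, and both are part of the ring on U6. The 3 U1 proteins rose with both combinations and 2 of them rose with 1 µM THZ531, SNRNP70 by 0.75 ± 0.07 (adjusted p = 1.98e-08) and SNRPC by 0.73 ± 0.07 (adjusted p = 1.12e-08) with lapatinib plus THZ531. On the mitochondrial scale their median with that combination was 0.04, and no call of a rise was kept.

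Of 11 U2 protein genes 6 (54.5%) rose and 2 (18.2%) fell in each strong treatment, against 34.3% and 37.8% of all genes with lapatinib plus THZ531, but with library size alone 2 rose and 7 fell in that comparison. SF3B6 rose by 0.82 ± 0.09 (adjusted p = 4.18e-08, edgeR) and SF3B3 fell by 0.56 ± 0.07 (adjusted p = 1e-06) with lapatinib plus THZ531. With mitochondrial scaling SF3B6 stood at 0.13 (adjusted p = 0.466). Of 16 genes of the U4/U6.U5 tri-snRNP, 5 (31.2%) rose in each and 5, 6 and 5 (31.2% to 37.5%) fell, shares near those of all genes. PRPF3 fell by 2.15 ± 0.09 (adjusted p = 2.35e-14) and SNRNP40 fell by 1.90 ± 0.08 (adjusted p = 2.28e-14) with lapatinib plus THZ531.

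In the 7SK particle, the binding partners of RN7SK did not move with it as a group. MEPCE, which caps 7SK, fell in the 3 strong treatments, with log2 fold changes of -1.93 ± 0.13 (adjusted p = 8.54e-11, edgeR), -2.19 ± 0.13 (1.6e-11) and -1.83 ± 0.13 (2.72e-10). HEXIM1, the protein that blocks P-TEFb on 7SK, rose by 1.34 ± 0.24 (adjusted p = 4.34e-05), 0.67 ± 0.24 (0.0155) and 0.56 ± 0.24 (0.0406), although the last stood at -0.0048 with mitochondrial scaling. The call with nilotinib plus THZ531 was lost without replicate 2 or 3 of that group (adjusted p = 0.0561 and 0.0755), and that with 1 µM THZ531 without any 1 of the DMSO libraries or without high-dose replicate 1 or 3 (up to 0.259). HEXIM2 fell, at -0.55 ± 0.16 (adjusted p = 0.00543), -0.63 ± 0.16 (0.00206) and -0.53 ± 0.16 (0.00752).

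LARP7, which binds the 3′ end of 7SK, fell by 0.32 ± 0.10 with lapatinib plus THZ531 (adjusted p = 0.0081, edgeR) and was at -0.12 ± 0.10 (0.283) and 0.07 ± 0.10 (0.539) in the other two, the last turning to -0.47 with mitochondrial scaling. The fall was not called without DMSO replicate 2 (adjusted p = 0.059). CDK9, the kinase of P-TEFb, fell, at -0.82 ± 0.13 (adjusted p = 1.48e-05), -0.97 ± 0.13 (1.87e-06) and -0.93 ± 0.13 (3.7e-06). Its cyclin CCNT1 fell by 0.91 ± 0.15 with 1 µM THZ531 (adjusted p = 1.63e-05) and differed by -0.30 ± 0.15 (0.0759) and -0.21 ± 0.15 (0.209) with the combinations, the former passing without lapatinib plus THZ531 replicate 2 (0.0271) or high-dose replicate 2 (0.00968). CCNT2 rose by 0.53 ± 0.16 (adjusted p = 0.00469) and 0.58 ± 0.16 (0.00247) with the combinations, where mitochondrial scaling gave -0.15 and -0.05, and fell by 0.42 ± 0.16 (0.0239) with 1 µM THZ531. That fall was not called without DMSO replicate 1 (adjusted p = 0.0699) or high-dose replicate 2 (0.143).

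In the single treatments few genes of these lists moved. Low-dose THZ531 had at most 1 called gene in a list and direction, against 1.78% of all genes higher and 4.31% lower. Lapatinib and nilotinib alone had 0 in each list, against 0.0561% and 0.0998% of all genes lower.

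The level of RNVU1-6 across the 21 libraries was most like those of 5 protein-coding genes, by Pearson's r of log2 CPM (tested genes averaging 1 or more on that scale were ranked). These were HACD3 (r = 0.992), ID2 (0.991), SGK1 (0.990), ARF3 (0.988) and JUNB (0.988). The r values follow the gap between strong and weak treatments that all these genes share, and are a description of these libraries. ID2, a transcription inhibitor, had log2 fold changes of 2.62, 2.40 and 2.09, in the same order across the strong treatments as RNVU1-6. Among the snRNA genes, r with RNVU1-6 was 0.97 for RNU4ATAC and 0.96 for RNU5A-1, but 0.48 for RNU6ATAC and 0.77 for RN7SK.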

How the data were processed

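Gene counts of 21 Hs578T libraries were used as deposited. Per the paper's methods and the submitters' processing notes, the authors aligned filtered 100-base paired-end reads of unstranded polyA-selected libraries to GRCh38 with HISAT2 2.1.0 and counted them with featureCounts, and they used DESeq2. How reads with several matches were counted is not given in the sources used here. Between 61.6% and 66.4% of counts from 1 to 20 were even in each library, so a read pair may have added 2 counts, and counting intervals may then be too narrow.

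Of 28395 Entrez identifiers 27745 matched a RefSeq symbol (GRCh38.p14). Genes were filtered with filterByExpr, scaled by TMM and fitted with edgeR 4.0.16 (R 4.3.3) over all groups, with 1 mean per group, and called at an adjusted p under 0.05 without a fold limit. The SE is the log2 fold change divided by the square root of F. Log2 CPM used a prior count of 2. Sequences were read from GRCh38 and copies searched with BLAST 2.17.0. Strands and introns came from GENCODE. The sequences of the U5 genes are not reported here.

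The members and lists were chosen with earlier results of these data known. Text names were set by rule: all 10 genes, the 2 called genes of each list with the largest change with lapatinib plus THZ531, every 7SK particle gene, other snRNA rows with a mean of at least 10 counts, overlapping and nearest genes, and the 5 genes most like RNVU1-6. Alternatives were RLE size factors, library size alone, upper quartile, mitochondrial scaling, no filter, at least 10 counts in every library, DESeq2 1.42.0, a replicate block, halved counts and leaving out each of the 21 libraries. The interaction contrasts, and the recomputation of other named genes and of the lists under these settings, were added after the data were seen.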

Additional observations from a re-analysis of the deposited data

Results flagged for a closer look

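The response to a combination exceeded the sum of both single responses on the log2 scale for several genes, by an interaction contrast in edgeR's quasi-likelihood test that was added after the data were seen. With lapatinib the excess was 5.04 ± 0.62 (SE) for RNU5A-1 (adjusted p = 8.2e-07), 4.14 ± 0.48 for RNU4ATAC (adjusted p = 3.59e-07) and 3.74 ± 0.81 for RNU11 (adjusted p = 0.000525). With nilotinib it was 4.16 ± 0.60 for RNU5A-1 (adjusted p = 6.98e-06), 3.60 ± 0.46 for RNU4ATAC (adjusted p = 1.75e-06), 4.15 ± 0.83 for RNU11 (adjusted p = 0.00028) and 1.79 ± 0.53 for RN7SK (adjusted p = 0.00725). RN7SK with lapatinib gave 0.04 ± 0.54 (adjusted p = 0.959). RNU11 had passed the filter only by being high in the strong treatments, so its excess is a description. RNU12, RNU4-2 and RNU5B-1 were left out because some of the groups held too few counts for a fitted excess, and RNVU1-6 because its rise in the combinations had put it in the list.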

How the results depend on the processing

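Requiring at least 10 counts in every library left RN7SK as the only one of these genes in the fit, so the number called fell by construction to 1 for each strong treatment against DMSO, for nilotinib plus THZ531 against nilotinib, for lapatinib plus THZ531 against 1 µM THZ531 and for the interaction with nilotinib, and to 0 for low-dose THZ531, for lapatinib plus THZ531 against lapatinib, for nilotinib plus THZ531 against 1 µM THZ531 and for the interaction with lapatinib. With low-dose THZ531 the number called was 0 with upper quartile, mitochondrial scaling and halved counts, and 0 to 1 when single libraries were left out; the cause was not tested. Leaving out single libraries gave 2 to 4 genes for lapatinib plus THZ531 against 1 µM THZ531 and 3 to 6 for nilotinib plus THZ531 against it. No other count of these 10 genes moved by more than 1.5 times, and none of their fold changes that were recomputed (those with DMSO for genes not given as count ratios, and those called against 1 µM THZ531) turned direction. Of 65 values of other named genes, mitochondrial scaling turned RNU6-1 (-0.10), WDR5 (-0.56), CCNT2 (-0.15) and POLDIP3 (-0.41) with lapatinib plus THZ531, CCNT2 (-0.05) with nilotinib plus THZ531, and HEXIM1 (-0.0048) and LARP7 (-0.47) with 1 µM THZ531. With mitochondrial scaling 10 other values lost their call without turning. Library size alone turned WDR5 (-0.21) and POLDIP3 (-0.05) with lapatinib plus THZ531, and upper quartile turned POLDIP3 (0.01) with 1 µM THZ531. Library size alone moved the median of all genes with lapatinib plus THZ531 to -0.34, upper quartile to 0.15 and mitochondrial scaling to -0.69, and 30.2%, 55.1% and 8.32% of calls were then higher, against 47.6% with TMM. With counts this low, ratios of RNU12, RNU4-2 and RNU5B-1 are known only within wide intervals.

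Whether the replicate numbers pair the libraries was not settled. Same-numbered libraries of different groups deviated with a mean correlation of 0.15 (-0.83 to 0.892, 36 of 63 pairs over 0.1). For libraries of different numbers the mean was -0.07, and 8 of 21 libraries were closest to their own number. A replicate block took the low-dose count from 1 to 0, with an adjusted p of 0.0515 for RNVU1-6, and the call of RNU4-2 in lapatinib plus THZ531 against 1 µM THZ531 was lost (adjusted p = 0.0565).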
